A study of Homo sapiens with 9 samples.

Results

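Of the 18364 genes in the table, 51 belong to the Wnt pathway set described here: secreted Wnt ligands, their receptors, their antagonists and the core of the beta-catenin branch. They were chosen by name, with earlier results of these data known. Every symbol of the WNT, FZD, DKK, SFRP and RSPO families was taken, together with 18 listed genes, of which NKD2 and WIF1 were not analysed here. The set has 16 Wnt ligands, 3 R-spondins, 9 Frizzled receptors, 7 secreted antagonists and 16 co-receptors, regulators and transcription factors. RNA was sequenced from 9 tumours of LN229, an established human glioblastoma cell line, grown after intracranial injection in nude mice, which lack a thymus, and collected at the terminal stage. In 6 tumours the cells carried TAZ-4SA, that is the co-activator TAZ in a form in which serines targeted by the Hippo pathway kinases are replaced by alanine. Cells of the other 3 tumours carried the empty vector (EV). The comparison asks how TAZ activation alters expression in these tumours. The promoter driving TAZ-4SA, the number of clones behind each line and the animal each tumour came from were not stated in the labels, so p-values measure only the spread between these samples.

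Wnt proteins are lipid-modified ligands that bind Frizzled receptors. With the co-receptors LRP5 or LRP6, the ligand stops the destruction complex of APC, AXIN and kinases from degrading beta-catenin, which then acts with TCF/LEF factors in the nucleus. R-spondins, through LGR receptors, protect Frizzled from the ubiquitin ligases RNF43 and ZNRF3. Dickkopf (DKK) and secreted Frizzled-related (SFRP) proteins act as antagonists outside the cell. Ligands such as WNT5A are best known for signalling through Frizzled and ROR receptors without beta-catenin, and the pathway has been tied to invasion and stem-like states in glioblastoma.

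The TAZ-4SA tumours had much more RNA for a single ligand, WNT5A, and a single antagonist, DKK1. They also had more APC RNA, and less for the antagonist SFRP1 and the co-receptor LRP5. The receptor FZD7 and the transcription factor LEF1 were lower too, but these calls were lost without at least 1 EV tumour. Of the 51 genes, 44 had a mean of at least 1 CPM (counts scaled to library size by the authors) over the 9 tumours and were tested with limma. At an adjusted p under 0.05, 4 were higher in TAZ-4SA (WNT5A, DKK1, APC and PORCN) and 8 were lower (SFRP1, LRP5, LEF1, RSPO4, NKD1, WNT6, FZD7 and FZD9). The 4 higher genes are 9.09% of those tested, against 9.02% of all 15578 genes tested, and the 8 lower genes are 18.2%, against 13.3%. The share of higher genes was thus near that of the whole table. The lowest TAZ-4SA value exceeded the highest EV value for 4 of the 44 genes (9.09%, against 10.8% of all genes), and the highest TAZ-4SA value was under the lowest EV value for 14 (31.8%, against 21.3%). The median log2 fold change (TAZ-4SA minus EV) was -2.01 over the 44 genes and -0.85 over all genes tested. These medians, like those of smaller sets below, were not matched for expression level. With only genes of at least 10 CPM on average, the median over all genes was -0.41. Leaving out EV tumour 1, 2 or 3 left 3, 3 and 4 lower genes, while the share of all genes called lower was 5.6%, 5.47% and 6.36%. Tumours 2, 3 and 4 of the TAZ-4SA group had more genes at 0 reads than the rest, and without them 5 genes were higher and 11 lower (12.2% and 14.5% of all genes). Without the shallowest pair, tumours 5 and 6, 3 were higher and 12 lower (9.31% and 17.7% of all genes). In bulk RNA, fewer cells of a type and less RNA per cell cannot be told apart.

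**Figure D1:**
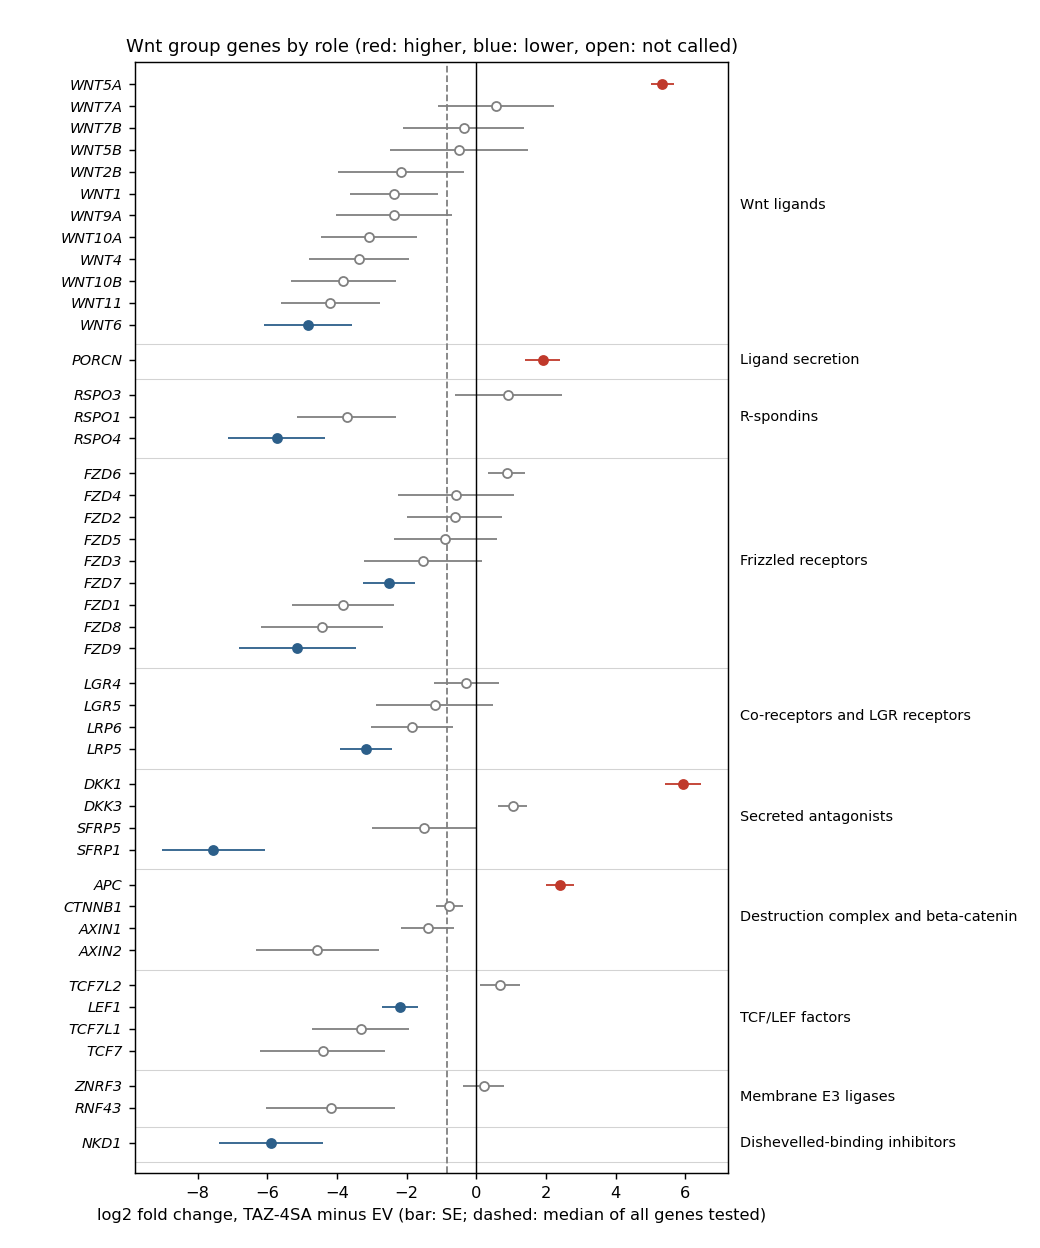
Log2 fold change (TAZ-4SA minus EV, with the SE as a bar) of the 44 tested genes, ordered by role, where filled red points were called higher, filled blue points lower and open points neither. WNT5A and DKK1 stand at 5.34 and 5.93, while most open points of low genes lie left of 0 with wide bars; the dashed line is the median of all genes tested, -0.85.

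WWTR1, which encodes TAZ, had 331 ± 74.6 CPM in TAZ-4SA (SD, n = 6) and 120 ± 3.17 in EV (SD, n = 3). Recovered reads per library lay between 3144861 and 31468135 in TAZ-4SA and between 17314672 and 21576264 in EV. The share of all genes at 0 reads was 16.3% to 40.1% in TAZ-4SA and 2.7% to 3.4% in EV. Of the 51 Wnt pathway genes, 9 to 27 were at 0 in a TAZ-4SA tumour and 0 to 2 in an EV tumour. Among all genes with an EV mean of 10 to 30 CPM, 13.8% were at 0 in at least 3 TAZ-4SA tumours, as were 6 of the 13 Wnt pathway genes of that level. Among genes of 1 to 10 CPM the share was 57.7%, and 12 of 19 Wnt pathway genes. The part of this difference in the lower calls was not tested.

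Markers of other cell types differed between tumours too. Summed CPM over the neuronal markers was 84.5 to 1253 in TAZ-4SA and 29.5 to 128 in EV, all 6 being detected and SNAP25 leading. The endothelial sum was 0.101 to 149 against 11.0 to 16.0 (6 of 6 markers). TIE1, the highest over all 9 tumours, was 0 to 143 CPM in TAZ-4SA and 1.41 to 1.87 in EV. The TAZ-4SA median of VWF, PECAM1, CLDN5 and KDR was under every EV value, for VWF 0.0505 against 6.86 to 11.2. The pericyte and fibroblast sum was 164 to 262 against 101 to 209 (5 of 5). LUM, again the highest, was 75.2 to 165.5 CPM in TAZ-4SA and 9.88 to 17.7 in EV. The TAZ-4SA median of DCN, RGS5 and KCNJ8 was under every EV value. For PDGFRB and CDH5 it lay within the EV range. For the 4 of 8 microglial and macrophage markers used the sums were 0 to 23.7 and 1.10 to 1.40, with P2RY12 at 0 in all TAZ-4SA tumours. The oligodendrocyte sum was 8.52 to 320 against 192 to 275, with MOG and MOBP at 0 in all TAZ-4SA tumours, and the astrocyte sum 6.66 to 68.0 against 20.3 to 41.1. Markers of the labelled glioblastoma line summed to 2402 to 3793 and 3163 to 3574 CPM, led by VIM, but single markers differed. NES was 99.9 to 258 CPM in TAZ-4SA and 1290 to 1360 in EV, SOX2 0 to 25.2 and 35.0 to 42.8, OLIG2 0 to 9.85 and 24.6 to 45.1, and GFAP 0 to 104 and 5.00 to 18.7. EGFR was 279 to 512 CPM in TAZ-4SA and 8.15 to 12.4 in EV, and CD44 185 to 400 and 82.6 to 110. The part of other cell types in the Wnt pathway values was not tested.

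**Figure D2:**
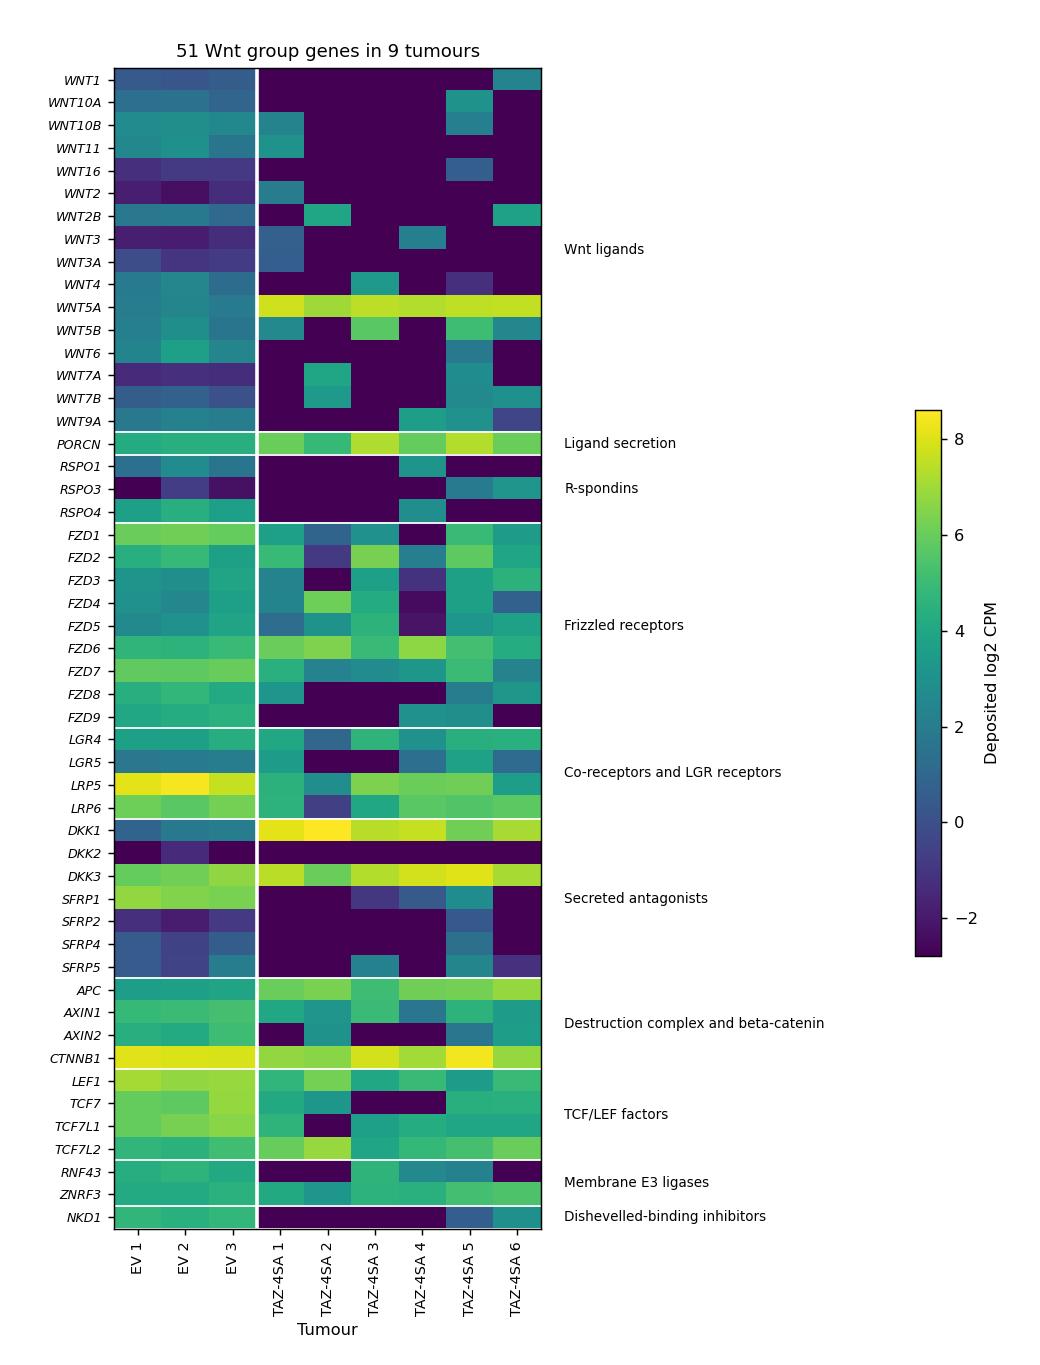
Deposited log2 CPM of all 51 genes (rows, grouped by role) in 3 EV and 6 TAZ-4SA tumours (columns), with colour from the lowest value, -2.786, which stands for 0 reads, to bright yellow. WNT5A and DKK1 are bright in every TAZ-4SA tumour, while most other ligand rows of those tumours are at the floor in 4 or more.

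The promoters of 3 of the 4 genes called higher are shown because TAZ acts through TEAD factors, which bind the letters GGAATG, and because beta-catenin acts through TCF/LEF factors, which bind CTTTGAT. Sequences are the 250 bases before a RefSeq start site on GRCh38.p14, written along the gene's strand, with motif matches in capitals.
DKK1: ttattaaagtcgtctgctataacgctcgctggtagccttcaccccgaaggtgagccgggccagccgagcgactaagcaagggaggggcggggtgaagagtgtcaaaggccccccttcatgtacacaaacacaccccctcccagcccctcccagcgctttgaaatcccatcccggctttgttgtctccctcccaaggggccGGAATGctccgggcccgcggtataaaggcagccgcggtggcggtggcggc
WNT5A: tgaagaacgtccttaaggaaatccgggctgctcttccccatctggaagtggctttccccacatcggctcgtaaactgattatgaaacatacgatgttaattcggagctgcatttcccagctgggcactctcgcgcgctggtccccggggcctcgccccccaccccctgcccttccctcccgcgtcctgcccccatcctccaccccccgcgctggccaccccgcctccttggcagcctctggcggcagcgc
APC: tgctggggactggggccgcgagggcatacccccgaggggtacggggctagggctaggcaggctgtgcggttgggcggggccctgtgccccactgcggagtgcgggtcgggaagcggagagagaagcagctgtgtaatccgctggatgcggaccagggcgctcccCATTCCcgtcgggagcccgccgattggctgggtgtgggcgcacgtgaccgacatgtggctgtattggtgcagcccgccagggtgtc
The DKK1 stretch (chr10:52314031-52314280, plus strand) holds 1 TEAD match on the gene's own strand, whose first base lies 50 bases before the start. Exons of PRKG1-AS1, on the opposite strand, overlap this stretch. The WNT5A stretch (chr3:55481399-55481648, minus strand) precedes an internal start and holds none of the motifs. It and the stretch before the other WNT5A start lie inside the gene's span, chr3:55465715-55505263. The APC stretch (chr5:112737635-112737884, plus strand) precedes an internal start and holds 1 TEAD match on the opposite strand, 86 bases before the start. The bases after the start were found in a GENCODE transcript of the gene for APC but not for the DKK1 and WNT5A starts shown. For the other WNT5A start they were found. Distances are to the RefSeq start. Of the 51 genes, 36 matched an entry of the RefSeq promoter table, with 45 starts in all. Searched on both strands, GGAATG occurred in 3 of the 45 (6.67%), against 11.9% of all 35116 promoters. CTTTGAT occurred in 0 of 45, against 2.26% of all promoters, and the AP-1 motif TGANTCA in 1 of 45, against 6.57%. These are matches of letters only. The 4 genes called higher have 7 starts in the table, of which the 2 shown for DKK1 and APC hold a TEAD match. The other starts of APC and WNT5A and both starts of PORCN hold none and are not printed.

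Among the 16 ligands, WNT5A was the only one called higher and WNT6 the only one called lower. WNT5A (Entrez 7474, chr3:55465715-55505263), the ligand best known for beta-catenin-independent signalling, had 128, 182 and 220 CPM as the lowest, median and highest TAZ-4SA value. The EV tumours had 3.84, 5.17 and 3.67 CPM. Every TAZ-4SA tumour was far above every EV tumour, and the spread within each group was small. The mean was 177 ± 31.5 CPM in TAZ-4SA (SD, n = 6) and 4.23 ± 0.822 in EV (SD, n = 3), a 41.9-fold ratio, with a log2 fold change of 5.34 ± 0.32 (SE) and an adjusted p of 7.293e-07. Leaving out any 1 tumour moved the log2 fold change no further than 5.25 to 5.49. WNT6, another ligand, was at 0 in 5 TAZ-4SA tumours and at 3.36 CPM in the other, while the EV tumours had 5.06, 12.3 and 5.22 CPM. The groups did not overlap, though the TAZ-4SA group held only 12 reads in all. Its log2 fold change was -4.83 ± 1.25 with an adjusted p of 0.0165. The WNT6 call was lost without any single EV tumour (adjusted p 0.0547 to 0.0917), and over all alternatives tried the adjusted p was 0.0002888 to 0.0917. Without TAZ-4SA tumour 5, which held all the WNT6 reads of that group, the value was -5.60 on the log2 scale.

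WNT5B, the closest relative of WNT5A, was not called. Its lowest, median and highest TAZ-4SA values were 0, 5.64 and 52.6 CPM, and the EV tumours had 4.22, 7.33 and 2.97. Tumours 3 and 5 of the TAZ-4SA group were above all EV tumours and tumours 2 and 4 had 0 reads, so the groups overlapped (log2 fold change -0.51 ± 1.99, adjusted p 0.87), and the sign turned under quantile normalization. The other ligands were low in both groups. WNT11 had means of 1.36 and 5.41 CPM in TAZ-4SA and EV and the smallest p among ligands not called (adjusted p 0.0514). WNT10B, at 1.52 against 6.39, was like WNT6 in having all TAZ-4SA values below EV, without a call (adjusted p 0.0875). Mean CPM in TAZ-4SA and EV was 0.815 and 1.21 for WNT1, 1.35 and 2.30 for WNT10A, 4.68 and 2.92 for WNT2B, and 1.77 and 3.75 for WNT4. It was 3.63 and 0.261 for WNT7A, 4.03 and 1.28 for WNT7B, and 3.44 and 3.93 for WNT9A. Each of these was at 0 in 3 to 5 TAZ-4SA tumours, so their group means rest on 1 to 3 tumours each. WNT2, WNT3, WNT3A and WNT16 were below the level tested, with 74, 148, 26 and 5 reads in all over the TAZ-4SA tumours.

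Scaled by transcript length, the make-up of the ligand pool differed between the groups. WNT5A made up 67.5 ± 13.4% of the summed CPM per kb of the WNT genes in TAZ-4SA (SD, n = 6; 51.9% to 85.7%) and 3.86 ± 0.486% in EV (SD, n = 3). In EV no ligand led so clearly: WNT6 held 23.1 ± 5.89%, WNT10B 15.9 ± 2.96%, WNT11 14.9 ± 3.36% and WNT5B 11.7 ± 1.86%. The whole ligand sum was 44.6 ± 11.95 CPM per kb in TAZ-4SA and 18.4 ± 5.64 in EV, and the groups did not overlap (30.4 to 58.4 against 13.7 to 24.6). Lengths were those of the principal coding transcripts in GENCODE, so other isoforms would shift these shares.

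**Figure D3:**
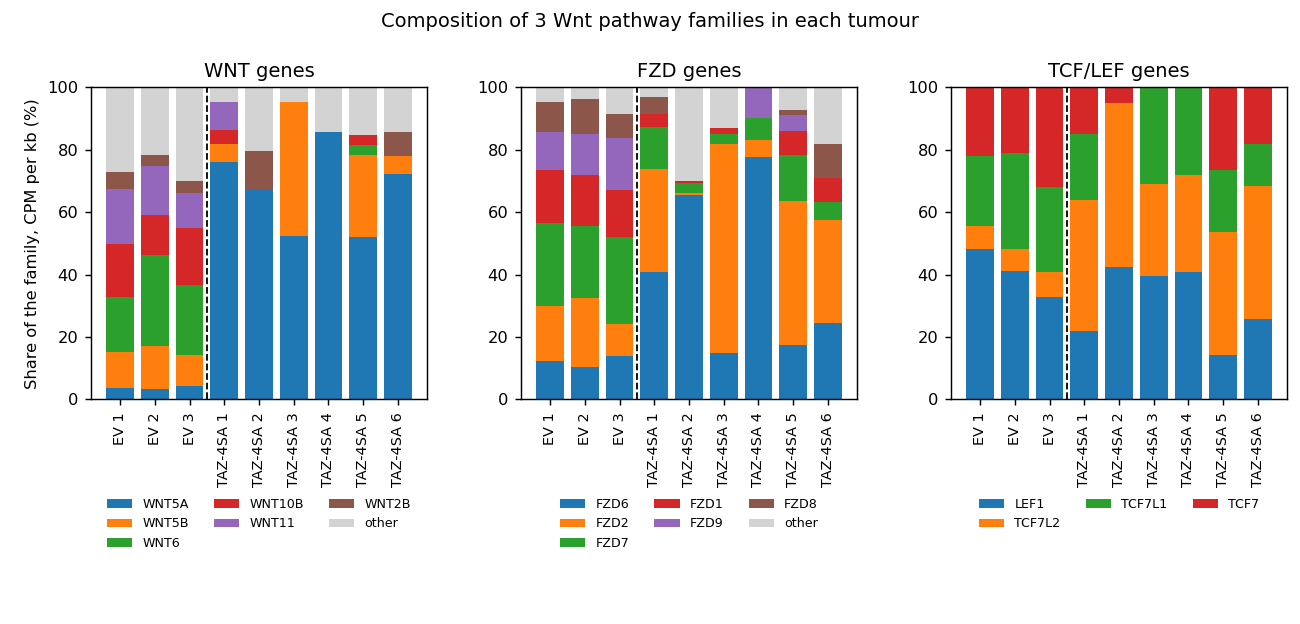
Share of each family's summed CPM per kb (percent, stacked bars) held by its genes in every tumour, for the WNT, FZD and TCF/LEF families, with EV tumours left of the dashed line and the smaller genes pooled as other. WNT5A takes 51.9% to 85.7% of the ligand bar in the TAZ-4SA tumours, against 3.86 ± 0.486% in EV.

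PORCN (chrX:48508992-48520814) encodes the enzyme that attaches the lipid Wnt ligands need for secretion. Its TAZ-4SA values were 28.9 at the lowest, 67.6 at the median and 156 CPM at the highest, and the EV tumours had 18.8, 20.9 and 21.2 CPM. All TAZ-4SA tumours were above EV, tumours 3 and 5 by the most. The log2 fold change was 1.90 ± 0.51 with an adjusted p of 0.019. This call was lost without any single EV tumour (adjusted p 0.0581 to 0.0741) and without TAZ-4SA tumours 5 and 6 (0.0619), and over all alternatives the adjusted p was 9.05e-05 to 0.138.

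R-spondins strengthen Wnt signals by keeping Frizzled receptors at the cell surface. RSPO4 was at 0 in 5 TAZ-4SA tumours and at 6.79 CPM in tumour 4, against 12.3, 20.4 and 12.3 CPM in EV. The groups did not overlap, with a log2 fold change of -5.73 ± 1.40 and an adjusted p of 0.012. Without EV tumour 2 the adjusted p was 0.0634, the highest of all alternatives (lowest 0.0001148), and without TAZ-4SA tumour 4 the log2 fold change was -6.66. RSPO1 had means of 1.42 and 3.99 CPM in TAZ-4SA and EV and RSPO3 of 2.08 and 0.176 CPM. Neither was called, and they were at 0 in 5 and 4 TAZ-4SA tumours.

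Of the 9 Frizzled receptors, 2 were lower and 0 higher in TAZ-4SA by limma (22.2% lower, against 13.3% of all genes), with a median log2 fold change of -1.54, against -0.85 over all genes. FZD7 (chr2:202033855-202038441), a receptor used in both branches of the pathway, had 4.64, 7.94 and 32.2 CPM as the lowest, median and highest TAZ-4SA value. The EV values were 56.5, 55.0 and 62.3 CPM. All TAZ-4SA tumours lay below EV, with tumours 1 and 5 nearest to it. The log2 fold change was -2.51 ± 0.74 (adjusted p 0.0295). FZD9 was at 0 in 4 TAZ-4SA tumours and at 7.84 and 7.0 CPM in tumours 4 and 5, against 16.0, 19.1 and 22.6 CPM in EV. The groups did not overlap (log2 fold change -5.15 ± 1.68, adjusted p 0.0445). Both calls depended on few samples. FZD7 was not called without any single EV tumour (adjusted p 0.131 to 0.134, over all alternatives 0.0009478 to 0.134) or without TAZ-4SA tumours 2, 3 and 4 (0.0782). FZD9 was not called without any single EV tumour (0.128 to 0.139) nor without TAZ-4SA tumour 1, 2, 3 or 6 (0.067 to 0.0861), over all alternatives 0.0005361 to 0.139. Leaving out TAZ-4SA tumour 4 or 5 gave a log2 fold change of -5.92 or -5.89.

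The other 7 Frizzled genes were not called. FZD1 had 0, 9.56 and 30.2 CPM as the lowest, median and highest TAZ-4SA value, and 64.7, 70.1 and 61.3 CPM in EV. FZD8 had 0, 1.96 and 9.48 CPM, and 21.2, 27.3 and 18.1 in EV. For both genes every TAZ-4SA tumour was below EV, yet neither was called (log2 fold change -3.83 ± 1.46, adjusted p 0.0777, and -4.44 ± 1.76, adjusted p 0.0883). Without TAZ-4SA tumour 4, which had no FZD1 reads, FZD1 was called (log2 fold change -2.83, adjusted p 0.0364). Over all alternatives the adjusted p was 0.002165 to 0.218 for FZD1 and 0.01262 to 0.241 for FZD8. FZD6 (Entrez 8323), a receptor known for restraining beta-catenin signalling, had 19.6, 51.4 and 101 CPM in TAZ-4SA and 25.4, 23.8 and 30.6 in EV. Its groups overlapped through tumour 6, with a log2 fold change of 0.87 ± 0.53 and an adjusted p of 0.246 (0.0161 to 0.48 over all alternatives). FZD2 had 0.404, 22.5 and 77.4 CPM in TAZ-4SA and 20.8, 29.2 and 12.7 in EV. FZD4 had 0.0359, 8.92 and 68.5 CPM in TAZ-4SA and 7.73, 5.47 and 12.4 in EV. Both overlapped widely (adjusted p 0.761 and 0.818), and the sign of both log2 fold changes, -0.62 and -0.59, turned under quantile normalization. FZD3 and FZD5 had means of 9.02 and 9.50 CPM in TAZ-4SA against 9.98 and 9.53 in EV. Per kb, FZD6 held 40.1 ± 26.2% of the Frizzled sum in TAZ-4SA and 12.2 ± 1.86% in EV, and FZD7 7.91 ± 4.98% and 25.8 ± 2.44%. The Frizzled sum itself was 41.0 ± 13.4 CPM per kb (SD, n = 6) and 58.4 ± 3.29 (SD, n = 3), with overlap between 55.2 and 56.9.

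The co-receptor LRP5 (Entrez 4041, chr11:68298412-68449275) had 282, 357 and 197 CPM in EV. In TAZ-4SA the lowest, median and highest values were 6.86, 44.6 and 82.0 CPM. The highest TAZ-4SA value was well under the lowest EV value. Means were 43.5 ± 33.2 CPM (SD, n = 6) and 279 ± 80.3 (SD, n = 3), 6.40-fold higher in EV, and the log2 fold change was -3.17 ± 0.74 with an adjusted p of 0.00972. LRP5 stayed under the threshold without any single tumour, with 0.0472 as the highest adjusted p. Its paralog LRP6 had 0.505, 35.2 and 54.4 CPM in TAZ-4SA and 68.9, 52.7 and 76.1 in EV, with overlap and no call (log2 fold change -1.85 ± 1.18, adjusted p 0.27). Without TAZ-4SA tumour 2, its lowest, the LRP6 log2 fold change was -0.90. LGR4, an R-spondin receptor, had 1.82, 18.9 and 24.7 CPM in TAZ-4SA and 12.8, 12.4 and 19.6 in EV (adjusted p 0.84). The log2 fold change of LGR4, -0.29, was positive under quantile normalization. LGR5, the R-spondin receptor of many stem cells, had means of 4.90 and 3.63 CPM and was not called.

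Of the 4 secreted antagonists tested, DKK1 was higher, SFRP1 was lower and DKK3 and SFRP5 were not called. DKK1 (Entrez 22943, chr10:52314281-52317657) binds LRP5 and LRP6 and keeps them from the ligand. Its lowest, median and highest TAZ-4SA values were 71.7, 183 and 395 CPM, and the EV tumours had 1.73, 3.37 and 3.93 CPM. No value of the groups came near each other, with tumour 2 highest and tumour 5 lowest in TAZ-4SA. Means were 210 ± 114 CPM (SD, n = 6) and 3.01 ± 1.14 (SD, n = 3), a 69.5-fold ratio, and the log2 fold change was 5.93 ± 0.51 with an adjusted p of 1.223e-05. The libraries keep no strand, so reads of DKK1 and of PRKG1-AS1, which overlaps an exon on the other strand, cannot be told apart. SFRP1 (Entrez 6422), which binds Wnt ligands directly, had 108, 89.0 and 81.4 CPM in EV. In TAZ-4SA it was at 0 in 3 tumours, and the other 3 had 0.369, 1.19 and 6.72 CPM. The EV mean of 92.8 ± 13.8 CPM was 67.3-fold the TAZ-4SA mean of 1.38 ± 2.66, and the log2 fold change was -7.55 ± 1.47 with an adjusted p of 0.003499. The SFRP1 call held without any single tumour, and without TAZ-4SA tumour 5, the highest, the log2 fold change was -8.31.

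DKK3, a Dickkopf protein that does not act on LRP co-receptors in the way DKK1 does, had 67.4, 165 and 271 CPM as the lowest, median and highest TAZ-4SA value and 61.6, 70.0 and 106 CPM in EV. Only tumour 2 of the TAZ-4SA group fell among the EV values. DKK3 was not called (log2 fold change 1.04 ± 0.41, adjusted p 0.0859), but without TAZ-4SA tumour 2 it was (adjusted p 0.0137; 0.001328 to 0.313 over all alternatives). SFRP5 had means of 1.69 and 1.94 CPM and was not called. DKK2, SFRP2 and SFRP4 were under the level tested, with 0, 4 and 9 reads in all over the TAZ-4SA tumours. Per kb, DKK1 made up 60.6 ± 20.5% of the antagonist sum in TAZ-4SA and 3.10 ± 1.01% in EV, while SFRP1 made up 0.199 ± 0.399% and 39.3 ± 9.96%. The sum was 184 ± 45.0 CPM per kb in TAZ-4SA (SD, n = 6) and 53.8 ± 8.01 in EV (SD, n = 3), and the groups did not overlap.

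**Figure D4:**
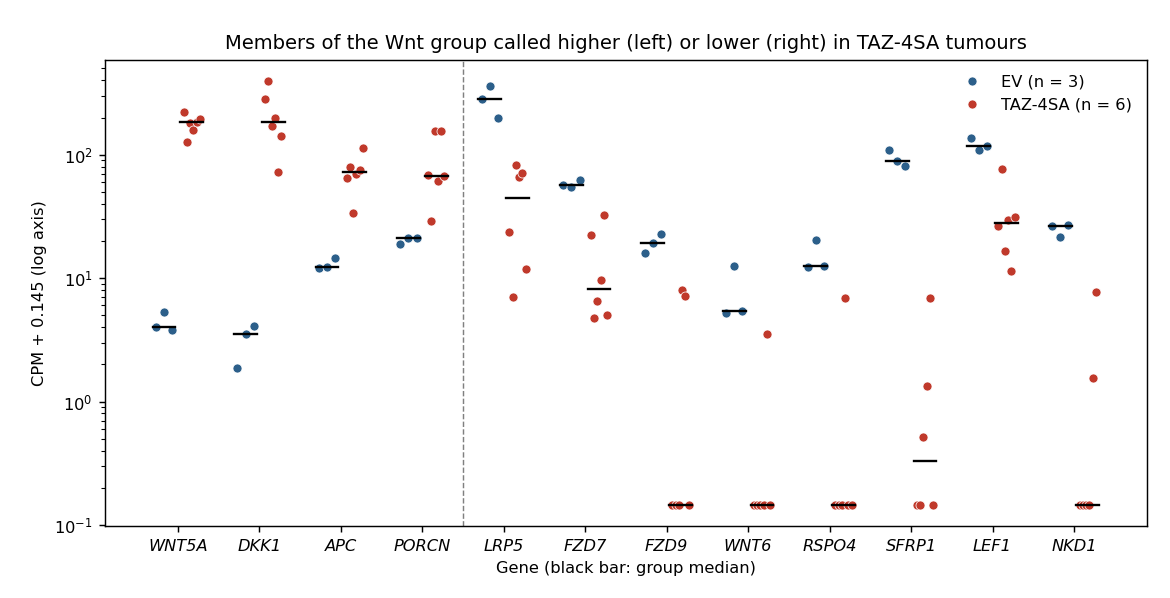
CPM plus the authors' prior of 0.145 (log axis) of the 12 genes called by limma, with 1 point for each EV (blue, n = 3) and TAZ-4SA (red, n = 6) tumour and a black bar at the group median. The groups do not overlap for any of these genes, and the points on the bottom line at 0.145 are tumours with 0 reads.

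Of APC, AXIN1, AXIN2 and CTNNB1, APC alone was called. APC (Entrez 324, chr5:112707498-112846239), the scaffold that brings beta-catenin to its kinases, had 33.7, 72.5 and 113 CPM as the lowest, median and highest TAZ-4SA value, and 12.04, 12.3 and 14.4 CPM in EV. All TAZ-4SA tumours were above all EV tumours. The mean was 72.9 ± 25.7 CPM against 12.9 ± 1.33, with a log2 fold change of 2.40 ± 0.41 and an adjusted p of 0.001726. AXIN1, a limiting scaffold of the complex, had 3.06, 13.5 and 31.7 CPM in TAZ-4SA and 29.2, 31.8 and 38.6 in EV. Its groups met only through tumour 3 (log2 fold change -1.39 ± 0.76, adjusted p 0.204, over all alternatives 0.0261 to 0.42). AXIN2, a scaffold and a feedback target of beta-catenin, was at 0 in 3 TAZ-4SA tumours and reached 11.9 CPM, against 21.0, 17.9 and 34.0 CPM in EV. All TAZ-4SA tumours were below EV, without a call (log2 fold change -4.57 ± 1.76, adjusted p 0.0813). Over all alternatives the AXIN2 adjusted p was 0.002849 to 0.223. CTNNB1, which encodes beta-catenin, had 96.4, 122 and 345 CPM in TAZ-4SA and 279, 256 and 246 in EV. Only TAZ-4SA tumour 5 exceeded the EV tumours, and CTNNB1 was not called (log2 fold change -0.77 ± 0.39, adjusted p 0.174). Without tumour 5 the log2 fold change was -1.01 with an adjusted p of 0.0332, over all alternatives 0.005749 to 0.359.

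Among the 4 TCF/LEF factors, LEF1 was lower in TAZ-4SA. LEF1 (Entrez 51176, chr4:108047548-108168932), a partner of beta-catenin and one of its feedback targets, had 136, 109 and 118 CPM in EV. In TAZ-4SA it had 11.2, 27.8 and 76.0 CPM, with tumour 2 at 76.0 and the next at 31.2 CPM. The groups did not overlap, with a log2 fold change of -2.19 ± 0.52 and an adjusted p of 0.0108. Without EV tumour 1 the adjusted p was 0.0603 (4.781e-05 to 0.122 over all alternatives). Reads of LEF1-AS1, which overlaps it on the other strand, cannot be told apart from those of LEF1. Exons on the other strand also overlap those of NKD1, TCF7, TCF7L2, FZD4, FZD6, LGR5, RNF43, WNT2, WNT2B, WNT4 and WNT11, with the same limit. Exons of other genes on the same strand overlap those of APC, AXIN2, FZD8 and RNF43. TCF7 had 0, 13.4 and 21.7 CPM in TAZ-4SA and 61.3, 55.6 and 113 in EV. TCF7L1, often a repressor, had 0, 15.4 and 24.5 CPM in TAZ-4SA and 61.3, 78.2 and 95.4 in EV. For both, all TAZ-4SA tumours were below EV, with adjusted p of 0.0971 and 0.107. The TCF7 log2 fold change, -4.42, was -3.51 without TAZ-4SA tumour 3 or 4, which had no TCF7 reads. Over all alternatives the TCF7 adjusted p was 0.00749 to 0.259. TCF7L1 was at 0 in tumour 2 alone, and without that tumour its log2 fold change moved from -3.32 to -2.17, with an adjusted p of 0.002777 (to 0.257 over all alternatives).

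TCF7L2 had 15.0, 50.5 and 117 CPM in TAZ-4SA and 26.2, 23.2 and 35.1 in EV, with overlap (log2 fold change 0.67 ± 0.57, adjusted p 0.412). Per kb, TCF7L2 held 39.6 ± 8.49% of the TCF/LEF sum in TAZ-4SA (29.4% to 52.6%) and 7.49 ± 0.414% in EV. LEF1 held 30.8 ± 11.7% and 40.7 ± 7.67%, TCF7 10.8 ± 10.8% and 25.0 ± 5.92%, and TCF7L1 18.9 ± 11.2% and 26.8 ± 4.08%. The whole sum was 33.3 ± 15.9 CPM per kb in TAZ-4SA (SD, n = 6) and 98.4 ± 16.3 in EV (SD, n = 3), without overlap (13.4 to 58.6 against 86.2 to 117).

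Of the inhibitors inside the cell and at its membrane, NKD1 was lower in TAZ-4SA and the ligases were not called. NKD1, which binds Dishevelled and is a feedback target of beta-catenin, had 26.2, 21.5 and 26.8 CPM in EV. It was at 0 in 4 TAZ-4SA tumours and at 1.40 and 7.64 CPM in tumours 5 and 6, from 30 reads in all. The groups did not overlap (log2 fold change -5.90 ± 1.51, adjusted p 0.0151). The NKD1 call was lost without any single EV tumour (adjusted p 0.0609 to 0.0679) and without TAZ-4SA tumours 2, 3 and 4 (0.0604), with 0.0002423 to 0.0679 over all alternatives, and without TAZ-4SA tumour 6 its log2 fold change was -6.74. RNF43, a ligase that removes Frizzled from the membrane, was at 0 in 3 TAZ-4SA tumours and at 4.48, 5.86 and 25.1 CPM in the others, against 20.1, 24.4 and 17.5 CPM in EV. Only tumour 3 reached the EV range, and RNF43 was not called (log2 fold change -4.19 ± 1.85, adjusted p 0.122). Without tumour 3 it was called (log2 fold change -5.08, adjusted p 0.044; 0.001026 to 0.286 over all alternatives). The other ligase, ZNRF3, had 8.98, 23.1 and 43.1 CPM in TAZ-4SA and 18.4, 18.1 and 22.6 in EV, with wide overlap (log2 fold change 0.21 ± 0.58, adjusted p 0.816).

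The set holds feedback targets of beta-catenin. Like the further gene lists, it was chosen with earlier results of these data known. Shares above those of all genes are thus not independent support. Of 8 such genes tested (AXIN2, LEF1, TCF7, NKD1, RNF43, ZNRF3, LGR5 and DKK1), DKK1 was higher, LEF1 and NKD1 were lower and 5 were not called (12.5% higher and 25% lower, against 9.02% and 13.3% of all genes). In a separate list of 18 beta-catenin target genes in the table, 16 were tested, with 5 higher and 5 lower (31.2% each, against 9.02% and 13.3% of all genes) and a median log2 fold change of -1.16, against -0.85. The higher ones with the smallest p were CCND1 (537 ± 84.1 CPM against 155 ± 38.9 in EV), CD44 (309 ± 69.9 against 97.6 ± 14.0), TBX3 (72.9 ± 21.1 against 23.5 ± 4.22) and EPHB2 (122 ± 56.9 against 27.6 ± 7.39). CCND1 encodes cyclin D1, CD44 an adhesion receptor, and CCND1 and CD44 are also used as readouts of TAZ. The lower ones included TNFRSF19 (36.9 ± 18.8 against 302 ± 56.0), EPHB3 (8.19 ± 13.7 against 306 ± 89.2) and BAMBI (12.7 ± 9.43 against 97.0 ± 16.8). EPHB2 and EPHB3, ephrin receptors often listed together as targets, thus changed in opposite directions.

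Of 63 other Wnt pathway genes tested, 9 were higher and 15 lower (14.3% and 23.8%, against 9.02% and 13.3% of all genes). The median log2 fold change was -0.97. This list was also chosen with earlier results of these data known. Those higher with the smallest p were PRICKLE1 of the planar polarity branch (81.9 ± 25.4 against 12.4 ± 1.07 CPM in EV), the beta-catenin kinase CSNK1A1 (178 ± 30.3 against 59.3 ± 15.6), TNKS2, which marks AXIN for degradation (87.6 ± 37.1 against 17.5 ± 3.89), and the co-activator EP300 (240 ± 36.4 against 111 ± 28.98). Of the lower ones, SOSTDC1, ROR2 and APCDD1 had 0 reads in all 6 TAZ-4SA tumours. Their EV means were 52.4 ± 39.0, 27.4 ± 4.30 and 10.4 ± 2.84 CPM. Against 3 reads per library, a mean of 0.419 CPM in TAZ-4SA, that is at least 125-fold, 65.4-fold and 24.8-fold lower. These bounds cover counting error only, not a loss of reads for other reasons. Of all genes with an EV mean of 10 to 30 CPM, 3.16% were at 0 in 5 or more TAZ-4SA tumours. At 30 to 100 CPM the share was 1.07%. The SOSTDC1 bound is 71.5-fold without EV tumour 3, which had 97.2 CPM. SOSTDC1 and APCDD1 encode inhibitors of Wnt signalling and ROR2 a receptor for WNT5A. GPC3, a cell-surface proteoglycan, had 0.2799 ± 0.686 CPM against 127 ± 15.8 in EV. ROR1, the other ROR receptor, was named after its values were seen: it was higher in TAZ-4SA, at 39.2 ± 21.2 CPM against 9.38 ± 5.17 (log2 fold change 2.05 ± 0.56, adjusted p 0.0212). Its groups did not overlap, so the 2 ROR genes changed in opposite directions.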

How the data were processed

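Total RNA from 9 tumours was made into SMART-Seq and Nextera XT libraries, which keep no strand, per the labels' protocols. HISAT2, edgeR and the build GRCh38 are listed by the submitters' processing notes, which state no role for them. How reads were counted and filtered, on which annotation, and whether mouse reads were removed is not given in the sources used here. For 18364 genes the table deposited by the authors holds log2 CPM, a unit read from the values. The lowest, -2.786, stands for 0 reads and a prior of 0.145 CPM. The prior was subtracted to print CPM, and 100% of values under 5000 reads were whole reads within 0.1 read once rescaled, which gave totals per library. Since the reads carry no molecular identifiers, floors cover counting error only.

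The deposited log2 values were tested for 15578 genes whose mean over all tumours reached 1 CPM, with limma 3.58.1 in R 4.3.3, with an intensity trend, robust empirical Bayes and Benjamini-Hochberg adjustment over all of them at 0.05. Fold changes include the prior, so they understate changes of genes near 0 and can exceed the ratio of means where some tumours have 0 reads. A gene is called when its adjusted p is under 0.05. The fit was also run on simulated reads that had the same spread in both groups and no excess of zeros in either. Those settings differ from these tumours, so that run does not bear on the calls reported here. No pair of tumours agreed within sampling noise. Tumours sharing a replicate number did not deviate together (correlations of deviations 0.016, -0.028 and -0.063), so the fit has no block. The members and gene lists were chosen with earlier results of these data known. Members that were called, or with a mean of at least 10 CPM in a group, are given with values in each tumour or their range. Others with a mean of at least 1 CPM have group means, and up to 4 called genes per direction of each further list are named, except 1 gene that is not reported here. Levels per kb used the median length of APPRIS principal transcripts in GENCODE. Alternatives were scaling by median-of-ratios, quantile normalization, pseudocounts of 0.1 and 2 CPM, a filter at 10 CPM or none, and array weights. Further ones were no robust step, limma-voom with a variance per group on whole reads, omitted tumours and the replicate number as a block. Replicate numbers 4 to 6 occur only in TAZ-4SA, so the block compares only tumours 1 to 3 of each group.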

Additional observations from a re-analysis of the deposited data

Results flagged for a closer look

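In the 29 genes reported tumour by tumour, the 6 TAZ-4SA values were searched for a tumour that stood far from the other 5, and 7 such values were found, each the highest of its group. Chance gives about 1 in 20 groups where values follow a normal distribution, which CPM with many zeros do not, and a gene at 0 in 5 of 6 tumours meets the criterion by construction. FZD4 reached 68.5 CPM in tumour 2 (next 18.9), and LEF1 reached 76.0 CPM in the same tumour (next 31.2). RNF43 stood at 25.1 CPM in tumour 3 (next 5.86), and RSPO4 at 6.79 CPM in tumour 4 with 0 reads in the other 5. Tumour 5 had the highest SFRP1, 6.72 CPM (next 1.19), and the only WNT6 reads of the group, 3.36 CPM. NKD1 was highest in tumour 6, at 7.64 CPM (next 1.40).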

How the results depend on the processing

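Of the 12 genes called, 5 (APC, DKK1, LRP5, SFRP1 and WNT5A) were called without any single tumour, and 7 were lost without at least 1. The count of Wnt pathway genes lower in TAZ-4SA was 8. It was 13 at a pseudocount of 2 CPM (16.9% of all genes lower). At a mean of at least 10 CPM it was 4 of the 25 genes left (9.26%). With array weights it was 21 (36.1%) and with limma-voom by group 22 (28.3%). It was 3 to 11 without 1 tumour (5.47% to 17.3%). The count higher was 4, and 3 to 6 in every setting but the replicate block, with 5.13% to 16.2% of all genes higher. Other pathway genes numbered 9 higher and 15 lower. They were 15 and 29 with array weights (16.2% and 36.1% of all genes) and 24 lower with limma-voom by group (28.3%). Without 1 tumour they were 4 to 11 higher and 6 to 18 lower, against 5.13% to 10.8% and 5.47% to 17.3% of all genes. Target genes, 5 higher and 5 lower, gave 3 to 6 and 3 to 5 without 1 tumour, and 3 lower at a mean of at least 10 CPM. Causes of these changes were not tested. Quantile normalization moved the median log2 fold change of all genes from -0.85 to -0.15.

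Among 605 values of 29 genes, 517 kept direction and side of the threshold, 32 lost and 38 gained the call, and 18 turned sign, all of genes not called. FZD2 (reported log2 fold change -0.62) was 0.14 under quantile normalization, 0.56 without TAZ-4SA tumours 2, 3 and 4, and -1.14 to 0.29 without 1 tumour. FZD4 (-0.59) was 0.001 at a pseudocount of 2 CPM, 0.78 under quantile normalization and -1.32 to 0.39 without 1 tumour. LGR4 (-0.29) was 0.32 under quantile normalization, 0.16 with array weights, 0.43 without tumours 2, 3 and 4, and -0.50 to 0.23 without 1 tumour. WNT5B (-0.51) was 0.41 at a pseudocount of 2 CPM, 1.53 under quantile normalization, 1.16 without tumours 2, 3 and 4, and -1.31 to 0.39 without 1 tumour. ZNRF3 (0.21) was -0.19 without tumours 5 and 6.

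The replicate block compares only tumours 1 to 3 of each group, since replicate numbers 4 to 6 occur only in TAZ-4SA. An effect of the block thus cannot be told apart from that of comparing fewer tumours. With the replicate block, 2 Wnt pathway genes were higher and 9 lower, and 2 other pathway genes were higher and 12 lower. Of the targets, 2 were higher and 3 lower, with 3.88% of all genes higher and 13.2% lower. APC (adjusted p 0.0613), FZD7, LEF1, LRP5 and PORCN were not called with the replicate block, where FZD4 was 1.20 and ZNRF3 -0.31. The edgeR quasi-likelihood test was not run.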
